A study of Mus musculus with 7 samples.

Results

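Phase II conjugation enzymes attach a polar group to drugs, hormones, bile acids and reactive metabolites, and are described here in mouse liver as 47 genes of the 14889 in the table. They were taken by their symbols, as all glutathione transferases of the alpha, kappa, mu, omega, pi, theta and zeta classes. With these were taken the microsomal glutathione transferases and the numbered glucuronosyltransferases and sulfotransferases. The set holds 23 glutathione transferases, 16 glucuronosyltransferases and 8 sulfotransferases, of which 43 passed the filter on low counts and were tested. Liver RNA came from 7 ApoE-/- mice of the C57BL/6 strain, all aged 4 months and all fed Western diet for 3 months. ApoE-/- mice lack apolipoprotein E and accumulate cholesterol-rich lipoproteins, so both groups carry the deletion and ate the diet. Saline was given intraperitoneally to 4 of the mice, and the other 3 received PX-478 at 40 mg/kg by the same route, on a schedule called bi-weekly in the labels. PX-478 is the N-oxide of the alkylating drug melphalan, studied as a drug that lowers HIF-1α. Without untreated mice on normal chow, the comparison concerns the drug on this diet only, and tests measure the spread between these 7 samples, since housing and handling are not described in the labels.

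Glutathione transferases couple the tripeptide glutathione to electrophiles, among them the alkylating nitrogen mustards, and several also bind haem or steroids. Glucuronosyltransferases of the endoplasmic reticulum transfer glucuronic acid from UDP-glucuronate, and are known for clearing bilirubin, steroids and many drugs. Cytosolic sulfotransferases use the sulfate donor PAPS to conjugate phenols, steroids and bile acids. The liver is rich in all these enzymes, and their genes respond to nuclear receptors, to the oxidant sensor NRF2 and to sex hormones through growth hormone.

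Libraries held 10285776 to 17257304 counted reads. Levels are CPM, read counts relative to library totals scaled by trimmed mean of M-values, and 3 reads in a library correspond to 0.188 to 0.260 CPM, a limit that covers counting error only. Values by library are given for saline replicates 1 to 4 and then PX-478 replicates 1 to 3, and means with their SD in the same order. PX-478 replicate 2 stood apart in having 22.4% of its reads in 15 mitochondrially encoded genes, against 27.1% to 36.7% in the other libraries, and in the largest scaling factor. Hepatocyte markers made the tissue label plain, with Alb at 23548 ± 3103 CPM (SD, n = 4) in saline. In PX-478 10 of 11 hepatocyte markers had lower values (median log2 fold change -0.38), and their summed level was 40386 to 57548 CPM with saline and 35771 to 43687 CPM with PX-478. Marker sums depend on the scaling, whose factor was 1.29 for PX-478 replicate 2, and were not taken on library size alone. Of 16 macrophage markers 13 had lower values, with sums of 431 to 807 CPM and 384 to 508 CPM. At an unadjusted p under 0.05 in edgeR's quasi-likelihood test, 7 of the 16 were lower (43.8%) and 0 higher. Of all genes tested 3.48% were so in each direction. Higher values were found in 9 of 11 endothelial, 7 of 11 stellate and 4 of 8 cholangiocyte markers. Lower values were found in 6 of 7 tested lymphocyte markers. In whole liver, fewer cells of a type and less RNA per cell cannot be told apart, and the part of these shifts in the results on the conjugation enzymes was not tested.

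No conjugation enzyme passed the threshold of 0.05 on the p-value of edgeR's quasi-likelihood test adjusted over all 13693 genes tested, where 0% of genes passed as higher and 0.0073% as lower in PX-478. At an unadjusted p under 0.05, 7 of the 43 had lower values (16.3%) and 2 had higher values (4.65%), while 3.48% of all genes did so in each direction. Groups did not overlap, at any p, in 5 lower members (11.6%, beside 4.29% of all genes) and 2 higher members (4.65%, beside 4.3%). The lower ones at that p were Gstm6, Gstm2, Gstm7, Ugt3a2, Ugt2b5, Sult1d1 and Sult1e1, and the higher ones Gstt2 and Gsta4. Neighbouring genes of these families share sequence and position, so they are not independent of each other. Without PX-478 replicate 2 the lower count was 11 of 44, beside 4.25% of all genes, and the higher count stayed at 2. Scaling by library size alone gave 4 lower and 3 higher, beside 0.949% and 5.19% of all genes, and there the median log2 fold change of all genes was 0.15. In that scaling 4 members changed sign, Gsto1, Gstp3, Ugt1a5 and Ugt2b36. DESeq2 passed 1 of the 43, Gstm6, as lower (0.27% of all genes) and limma-voom passed 0. Over all members tested the median log2 fold change was -0.19, beside -0.0035 over all genes.

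**Figure D1:**
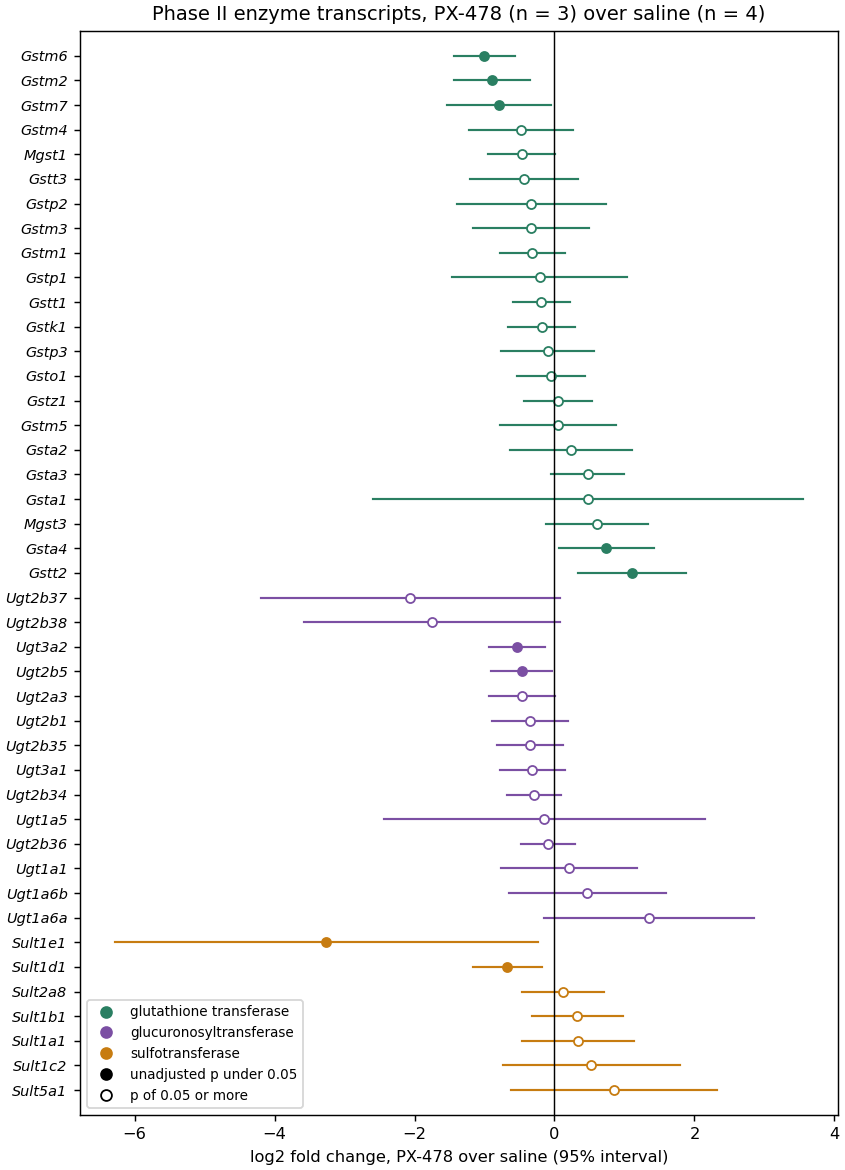
Log2 fold change, PX-478 relative to saline, for the 43 tested conjugation enzymes (x axis), with 95% intervals as horizontal lines and families by colour. Filled points mark an unadjusted p under 0.05; 7 of them lie left of 0 and 2 right of it, and all 8 tested Ugt2 genes lie left of 0.

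Glutathione transferases made up most of the summed level of the 47 genes. Their summed level was 5545 ± 514 CPM (SD, n = 4) in saline and 4735 ± 619 CPM (SD, n = 3) in PX-478, with overlapping ranges of 5142 to 6217 and 4153 to 5385 CPM. Per kilobase of exon, a scale on which genes can be compared, the most abundant in saline were Mgst1 at 1009, Gstm1 at 795 and Gstp1 at 331 CPM per kilobase. Of 22 tested, 14 had lower and 8 higher values, with a median log2 fold change of -0.18.

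The mu class, a row of genes on chromosome 3 whose products conjugate epoxides and other electrophiles, held 3 of the 7 lower members. Gstm6 (Entrez Gene 14867, chromosome 3 from 107938847 to 107953641 in mm10) stood at 92.1, 68.9, 78.1 and 70.3 CPM in saline replicates 1 to 4 and at 30.0, 46.4 and 39.4 CPM in PX-478 replicates 1 to 3. Every PX-478 library lay below every saline library, and the mean was 2.00-fold lower. In edgeR the log2 difference came to -1.003 (95% interval -1.44 to -0.56, SE 0.20, adjusted p = 0.195). DESeq2 gave the same change an adjusted p of 0.00372, and the adjusted p over all alternatives ran from 0.00372 to 0.884.

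Gstm2 (Entrez Gene 14863, chromosome 3 from 107981702 to 107986420) had the next smallest p. Its values were 22.2, 31.9, 30.4 and 24.2 CPM with saline and 10.2, 14.2 and 19.4 CPM with PX-478, again without overlap (log2 fold change -0.89, SE 0.25, adjusted p = 0.454). Gstm7 read 30.9, 15.6, 15.3 and 10.1 CPM with saline and 9.27, 13.3 and 8.61 CPM with PX-478. The Gstm7 groups overlapped, and saline replicate 1 was the highest of all libraries (log2 fold change -0.79, and -0.40 without that library).

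Gstm1, the main mu enzyme of mouse liver, read 1167, 1240.4, 1209 and 1069 CPM with saline and 845, 1199.8 and 780.3 CPM with PX-478. PX-478 replicate 2 lay within the saline range and the other PX-478 libraries below it (log2 fold change -0.31, SE 0.21, adjusted p = 0.796). In Gstm3 and Gstm4 PX-478 replicates 1 and 3 also lay below the saline libraries, while replicate 2 lay above them in Gstm3 and within their range in Gstm4. Gstm3 read 11.4, 37.8 and 12.5 CPM in PX-478 against 22.0 to 28.8 CPM in saline, and Gstm4 5.71, 15.4 and 7.70 CPM against 9.11 to 18.3 CPM. Only Gstm5, the sole gene of the class in the table on the plus strand, had a fold change near 0, at 0.048 (SE 0.38).

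Counts for the mu class depended on 1 library. With all 7 libraries 6 of 7 mu genes had lower values and 3 were under an unadjusted p of 0.05, beside 3.48% of all genes. Without PX-478 replicate 2 all 7 had lower values and 6 were under 0.05, beside 4.25% of all genes, a view of the class chosen after seeing the data. In that fit the log2 fold change came to -1.11 for Gstm3 (adjusted p = 0.217), -0.998 for Gstm4 (adjusted p = 0.442) and -0.53 for Gstm1 (adjusted p = 0.511), so that none passed. The library left out is the one with the low mitochondrial share, and the part of that share was not tested. Reads can be shared with other genes, pseudogenes among them. Of the 50-base windows of the annotated transcripts, 28.8% in Gstm3 and 18.9% in Gstm1 also occur in another gene. That share was 5.97% in Gstm6, 5.65% in Gstm2 and 0% in Gstm4. Windows that also occur in another of the 47 members were fewer. They were 15.8% in Gstm3, 8.88% in Gstm1, 3.49% in Gstm6 and 0.655% in Gstm2.

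**Figure D2:**
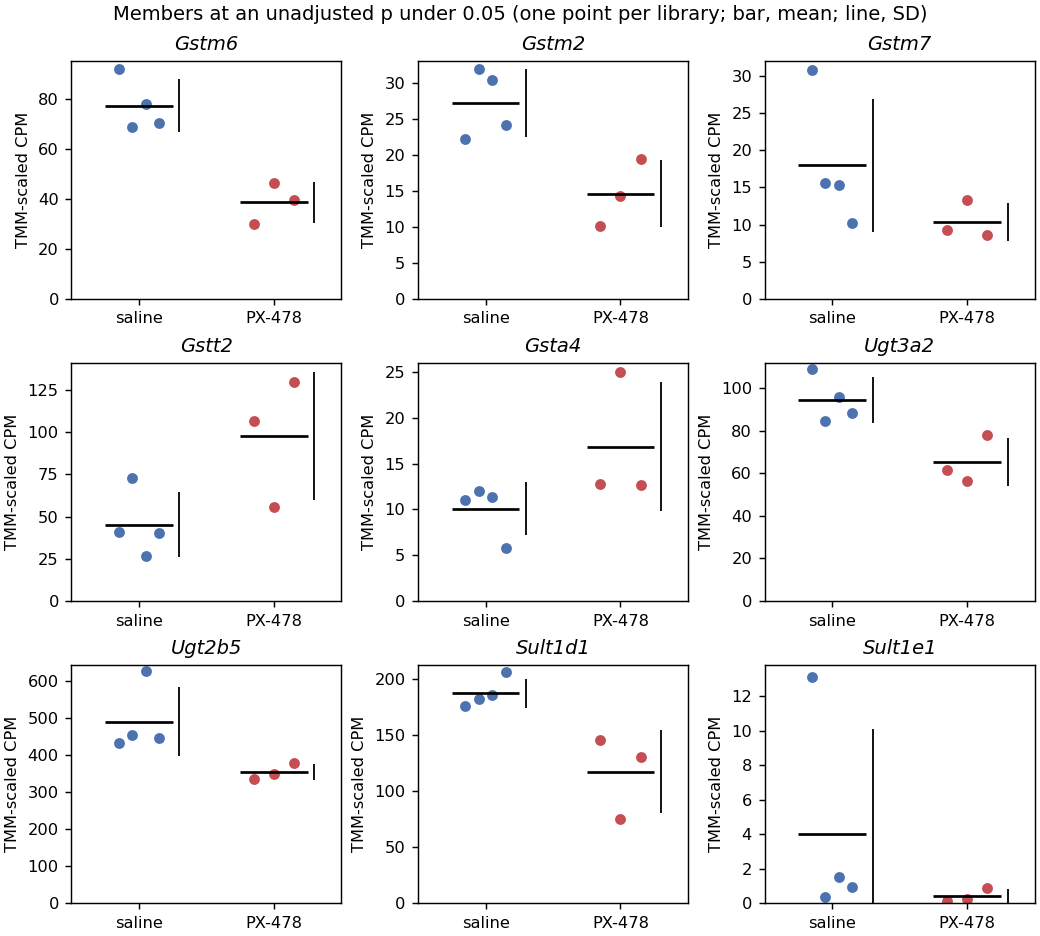
TMM-scaled CPM of the 9 members at an unadjusted p under 0.05, 1 point per library (blue, saline, n = 4; red, PX-478, n = 3), with the mean as a horizontal bar and the SD as a vertical line. No overlap between the groups is seen for Gstm6, Gstm2, Gsta4, Ugt3a2, Ugt2b5 and Sult1d1 (on library size alone Gsta4 and Ugt2b5 do overlap), while 1 saline library carries most of the Sult1e1 mean.

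Alpha class genes, whose products reduce lipid peroxides and conjugate lipid aldehydes, had higher values in 4 of 4. Gsta4, the enzyme for 4-hydroxynonenal (Entrez Gene 14860, chromosome 9 from 78191966 to 78209349), read 11.1, 12.1, 11.4 and 5.83 CPM with saline and 12.8, 25.04 and 12.7 CPM with PX-478. The groups did not overlap, except on library size alone, with PX-478 replicate 2 highest and saline replicate 4 lowest. On the log2 scale PX-478 exceeded saline by 0.74 (SE 0.31, adjusted p = 0.683), and 0.34 without PX-478 replicate 2. Gsta3, the most abundant alpha gene, read 256, 445, 329 and 374 CPM and 645, 405 and 413 CPM, where PX-478 replicate 1 was the highest and the groups overlapped (log2 fold change 0.47, adjusted p = 0.736). Gsta1 and Gsta2 were low, at 4.37 ± 4.46 CPM and 7.54 ± 4.19 CPM in saline, and 90.5% and 49.8% of their windows are shared with other genes. Without PX-478 replicate 2 only 2 of the 4 alpha genes had higher values.

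In the theta class Gstt2 (Entrez Gene 14872, chromosome 10 from 75831842 to 75837419) had the highest fold change of the tested glutathione transferases. It read 41.0, 72.7, 26.8 and 40.5 CPM with saline and 107, 55.8 and 130.1 CPM with PX-478, 2.16-fold higher on average. PX-478 replicates 1 and 3 lay above all saline libraries and replicate 2 below saline replicate 2 (log2 fold change 1.11, SE 0.35, adjusted p = 0.559). Its neighbour Gstt1, which conjugates small halogenated compounds, stood at 313 ± 31.5 CPM and 275 ± 38.5 CPM (log2 fold change -0.19, 95% interval -0.59 to 0.22).

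Mgst1, the membrane-bound enzyme of the endoplasmic reticulum and outer mitochondrial membrane, was the most abundant conjugation transcript. It read 2346, 1794, 2019.6 and 1960.4 CPM with saline and 1123, 1466 and 1811 CPM with PX-478, and PX-478 replicate 3 reached into the saline range (log2 fold change -0.47, SE 0.22, adjusted p = 0.727). Mgst3 had values in the other direction, at 20.1 ± 8.78 CPM and 30.6 ± 10.6 CPM (log2 fold change 0.61, SE 0.33). Mgst2 had 0 to 12 reads per library and was not tested (exact two-sided permutation p = 0.886, where the smallest possible is 0.0286). Gstz1, maleylacetoacetate isomerase of tyrosine breakdown, read 631, 589.9, 369.8 and 525 CPM and 584, 443 and 609 CPM, overlapping, with saline replicate 3 the lowest (log2 fold change 0.044, 95% interval -0.44 to 0.53). Gstk1 of the mitochondrion and peroxisome had a log2 fold change of -0.18 (95% interval -0.67 to 0.30) and Gsto1 one of -0.050 (95% interval -0.54 to 0.44).

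Pi class genes overlapped between the groups and varied widely within each. Gstp1, known as a male-predominant transcript in mouse liver, read 765, 207, 701 and 377 CPM with saline and 214, 350.3 and 761 CPM with PX-478. Gstp2 ran in parallel at 357, 113, 373 and 197 CPM and 112, 187 and 322 CPM. In both, saline replicate 2 and PX-478 replicate 1 held the lowest values and the groups spanned nearly the same range (log2 fold changes -0.21 and -0.33, with 95% intervals of -1.47 to 1.04 and -1.39 to 0.73). These neighbours share 33.7% and 54.3% of their windows with other genes, so the split of reads between them is uncertain. Gstp3 had a log2 fold change of -0.099, which turned positive when libraries were scaled by size alone, as did that of Gsto1.

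Whether glucuronosyltransferase transcripts were lower in PX-478 as a sum depended on the scaling. The summed level was 1552, 1468, 1783 and 1564 CPM with saline and 1161, 1243 and 1359.6 CPM with PX-478, without overlap at TMM scaling. On library size alone it was 1454, 1544, 1596 and 1511 CPM with saline and 1192, 1599 and 1208 CPM with PX-478, so that the groups overlapped and PX-478 replicate 2, the library with the largest scaling factor, was the highest of all. Of 14 tested, 11 had lower and 3 higher values, with a median log2 fold change of -0.33. At an unadjusted p under 0.05, 2 were lower, beside 3.48% of all genes, and 0 higher. All 8 Ugt2 genes had lower values at the main scaling, except that Ugt2b36 turned to 0.046 with library size alone as the scaling. The sum for Ugt2 genes was 1352 to 1658 CPM with saline and 1065 to 1248 CPM with PX-478 at TMM scaling, and on library size alone PX-478 replicate 2 again exceeded every saline library (1094, 1496 and 1109 CPM with PX-478 against 1321, 1423, 1484 and 1394 CPM with saline).

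Promoters of Ugt2b genes on chromosome 5 are printed for Ugt2b5, Ugt2b37 and Ugt2b38, which had lower values, and for Ugt2b36, much less so. Ugt2 genes not printed also had lower values, with log2 fold changes of -0.46 in Ugt2a3, -0.35 in Ugt2b1, -0.35 in Ugt2b35 and -0.29 in Ugt2b34. Each line is the 250 bases before the annotated start, from RefSeq on GRCm38.p6, on the minus strand and written 5′ to 3′. Capitals in the first 3 mark the longest run shared by those genes, 62 bases, and capitals in Ugt2b36 mark the 22 bases of that run that it also holds without a mismatch. The windows are chr5:87140341-87140590 for Ugt2b5, chr5:87254789-87255038 for Ugt2b37, chr5:87424204-87424453 for Ugt2b38 and chr5:87092556-87092805 for Ugt2b36.
Ugt2b5: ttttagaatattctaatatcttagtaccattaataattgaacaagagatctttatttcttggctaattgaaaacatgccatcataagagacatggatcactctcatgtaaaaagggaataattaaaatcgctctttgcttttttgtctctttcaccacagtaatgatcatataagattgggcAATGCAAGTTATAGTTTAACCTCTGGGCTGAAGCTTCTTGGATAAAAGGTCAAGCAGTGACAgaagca
Ugt2b37: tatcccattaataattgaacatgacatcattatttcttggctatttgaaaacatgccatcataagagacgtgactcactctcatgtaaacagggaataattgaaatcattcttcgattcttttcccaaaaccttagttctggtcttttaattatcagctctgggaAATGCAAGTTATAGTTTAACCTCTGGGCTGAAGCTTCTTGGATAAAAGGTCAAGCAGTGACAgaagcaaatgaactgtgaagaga
Ugt2b38: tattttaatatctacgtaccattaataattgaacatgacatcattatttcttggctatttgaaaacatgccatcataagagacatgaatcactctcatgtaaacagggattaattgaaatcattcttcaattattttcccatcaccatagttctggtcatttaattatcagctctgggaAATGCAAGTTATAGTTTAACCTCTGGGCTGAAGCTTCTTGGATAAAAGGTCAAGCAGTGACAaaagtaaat
Ugt2b36: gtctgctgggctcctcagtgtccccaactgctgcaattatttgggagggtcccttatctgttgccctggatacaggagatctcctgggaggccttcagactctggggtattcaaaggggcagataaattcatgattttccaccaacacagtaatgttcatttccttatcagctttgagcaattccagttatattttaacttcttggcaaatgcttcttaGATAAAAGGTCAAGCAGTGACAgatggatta

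The 62-base run occurred in 3 of the 32851 promoter windows in the table, those of the genes named, and the 22-base run in 4. In a pairwise alignment Ugt2b37 and Ugt2b38 were identical at 89.6% of the 250 positions, Ugt2b5 at 79.6% with Ugt2b37 and 84.8% with Ugt2b38, and Ugt2b36 at 64.0%, 63.6% and 64.4% with these genes. For scale, the window of Ugt2b34 was identical to that of Ugt2b36 at 52.0%. The window of Ugt2a3 was identical to that of Ugt2b5 at 55.6% and does not hold the run. Yet the log2 fold changes of Ugt2a3 and Ugt2b5 were close, at -0.46 and -0.47. The likeness is a description of the sequences and shows no binding, and its part in the values was not tested.

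Ugt2b5 (Entrez Gene 22238, chromosome 5 from 87124946 to 87140340), a steroid and drug conjugating enzyme and the most abundant of the family per kilobase, read 433, 455, 628 and 446 CPM with saline and 336, 349 and 378 CPM with PX-478. The groups did not overlap, except on library size alone, and saline replicate 3 was the highest (log2 fold change -0.47, SE 0.20, adjusted p = 0.685). Ugt2b38 read 27.7, 5.03, 26.9 and 25.1 CPM and 2.23, 13.0 and 3.72 CPM, and Ugt2b37 7.81, 2.26, 30.9 and 15.2 CPM and 1.74, 6.43 and 2.02 CPM. In both genes saline replicate 2 lay among the PX-478 libraries, and PX-478 replicate 2 was the highest of its group. Their log2 fold changes were -1.75 (SE 0.78, adjusted p = 0.728) and -2.06 (SE 0.91, adjusted p = 0.728), and went to -2.83 and -2.90 without PX-478 replicate 2. Without saline replicate 3 that of Ugt2b37 was -1.32. Transcript windows are shared with other genes at 41.7% in Ugt2b5, 37.4% in Ugt2b38 and 18.3% in Ugt2b37, mainly among these genes, so reads of the abundant Ugt2b5 could have been counted in the others.

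Ugt2b36 read 373, 368, 341 and 327 CPM with saline and 365, 298 and 331 CPM with PX-478, overlapping (log2 fold change -0.089, 95% interval -0.48 to 0.30). Ugt2b34 read 228, 242, 259.8 and 264 CPM and 189, 188 and 232 CPM, where PX-478 replicate 3 reached the lowest saline library (log2 fold change -0.29, adjusted p = 0.788). Ugt2a3 read 81.0, 72.2, 109 and 95.5 CPM and 48.1, 78.3 and 68.6 CPM, with PX-478 replicate 2 inside the saline range (log2 fold change -0.46, SE 0.22, adjusted p = 0.722). Ugt2b1 and Ugt2b35 had log2 fold changes of -0.35 and -0.35, with PX-478 replicate 1 the lowest library in each.

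The Ugt3 genes on chromosome 15 use sugars other than glucuronic acid, N-acetylglucosamine in the case of UGT3A1 and glucose or xylose in that of UGT3A2 in human. Ugt3a2 (Entrez Gene 223337, chromosome 15 from 9335551 to 9370955) had the smallest p of the glucuronosyltransferases. It read 109, 84.5, 96.0 and 88.3 CPM with saline and 61.4, 56.5 and 77.8 CPM with PX-478, without overlap (log2 fold change -0.53, SE 0.19, 95% interval -0.94 to -0.13, adjusted p = 0.599). Ugt3a1 stood at 21.9 ± 2.23 CPM and 17.6 ± 4.26 CPM (log2 fold change -0.31).

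Ugt1a genes are counted with most uncertainty, since they differ in the first exon and share all later ones. Between 52.1% and 79.8% of the windows of the 5 Ugt1a members occur in another gene, and each locus overlaps 8 to 14 others. Their summed level was 7.88 to 10.8 CPM with saline and 8.85 to 17.1 CPM with PX-478. With shared exons a low count need not mean low expression. Ugt1a1, the bilirubin enzyme, read 5.08, 8.76, 4.69 and 6.77 CPM and 11.6, 2.27 and 7.96 CPM, so that PX-478 libraries were both highest and lowest (log2 fold change 0.21, 95% interval -0.76 to 1.18). Ugt1a6a, a phenol enzyme, had 15, 5, 7 and 10 reads in saline and 18, 34 and 16 reads in PX-478, without overlap (log2 fold change 1.35, SE 0.69, adjusted p = 0.736). It was outside the naming rule for its low level and is given because its groups did not overlap. Ugt1a9 and Ugt8a, the galactosylceramide enzyme, had 0 to 20 and 0 to 11 reads and were not tested (exact two-sided permutation p = 0.457 and 0.571).

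Sulfotransferases had no common direction. Their summed level was 868, 952, 853 and 955 CPM with saline and 1072, 583 and 1195 CPM with PX-478, with PX-478 replicate 2 the lowest and replicates 1 and 3 the highest of all 7 libraries. Of 7 tested, 5 had higher and 2 lower values (median log2 fold change 0.33, and -0.18 without PX-478 replicate 3). Both lower ones were under an unadjusted p of 0.05, beside 3.48% of all genes.

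Sult1d1 (Entrez Gene 53315, chromosome 5 from 87554650 to 87569006), which sulfates catecholamines and other phenols, read 176, 182, 185 and 206 CPM with saline and 146, 75.3 and 131 CPM with PX-478. All 3 PX-478 libraries lay below the saline libraries, which were close to each other (log2 fold change -0.67, SE 0.23, 95% interval -1.17 to -0.18, adjusted p = 0.577). PX-478 replicate 2 was the lowest, and without it the log2 fold change was -0.44. Its neighbour Sult1e1, estrogen sulfotransferase, had 202, 4, 23 and 15 reads in saline and 2, 3 and 13 reads in PX-478. The groups overlapped and saline replicate 1 held most of the reads. Its log2 fold change of -3.26 (SE 1.33, adjusted p = 0.692) went to -1.19 without that library and to -4.40 without PX-478 replicate 3. None of the windows of Sult1d1 and Sult1e1 occur in another gene (0%).

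Sult2a8, a liver enzyme that sulfates bile acids and the most abundant of the family per kilobase, read 536, 522, 499 and 384 CPM with saline and 564, 295 and 721 CPM with PX-478. PX-478 libraries were both the lowest and the highest (log2 fold change 0.12, 95% interval -0.47 to 0.71). Sult1a1, the main phenol sulfotransferase, read 112, 198, 129.7 and 338 CPM and 327, 184 and 227 CPM, overlapping throughout (log2 fold change 0.34, 95% interval -0.46 to 1.13). Its locus overlaps that of Slx1b, and without stated use of strand, reads from the overlapping stretch cannot be told apart. Sult5a1 read 18.1, 37.8, 31.9 and 16.9 CPM and 22.3, 19.8 and 99.7 CPM, where PX-478 replicate 3 alone stood high, and its log2 fold change of 0.86 turned to -0.31 without that library. Sult1b1, which sulfates thyroid hormones, read 9.77, 5.38, 4.83 and 7.08 CPM and 8.64, 7.34 and 9.53 CPM, with saline replicate 1 the highest (log2 fold change 0.33, SE 0.30). For Sult1c2 the log2 difference came to 0.53 (SE 0.58). Sult2a7 had 0 to 13 reads and was not tested (exact two-sided permutation p = 0.886).

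Promoters of Mgst1 and Sult1d1 are printed as members with matches to sites named for regulators of these families. Capitals mark TGACNNNGC, the core of the antioxidant response element bound by NRF2, in Mgst1, and GTTAAT, a short HNF1 site, and GCGTG, the core of the element bound by the AHR, in Sult1d1, each searched on both strands. The windows are chr6:138140277-138140526 on the plus strand and chr5:87569007-87569256 on the minus strand (GRCm38.p6).
Mgst1: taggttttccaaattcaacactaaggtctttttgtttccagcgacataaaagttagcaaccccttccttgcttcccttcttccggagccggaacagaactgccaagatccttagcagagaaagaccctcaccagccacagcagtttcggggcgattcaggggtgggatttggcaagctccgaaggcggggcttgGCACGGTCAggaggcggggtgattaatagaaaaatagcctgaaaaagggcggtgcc
Sult1d1: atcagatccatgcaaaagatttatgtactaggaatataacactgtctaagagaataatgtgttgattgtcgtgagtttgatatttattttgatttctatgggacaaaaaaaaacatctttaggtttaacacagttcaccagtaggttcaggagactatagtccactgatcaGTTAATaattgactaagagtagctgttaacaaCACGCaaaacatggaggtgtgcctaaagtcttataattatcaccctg

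RefSeq promoter windows of the same 250 bases were found for 42 of the 47 genes, 52 windows in all. TGACNNNGC matched 7.69% of them and 10.2% of all 32851 windows, GCGTG 21.2% and 28.2%, and GTTAAT 15.4% and 6.43%. A match is a description of the letters only.

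**Figure D3:**
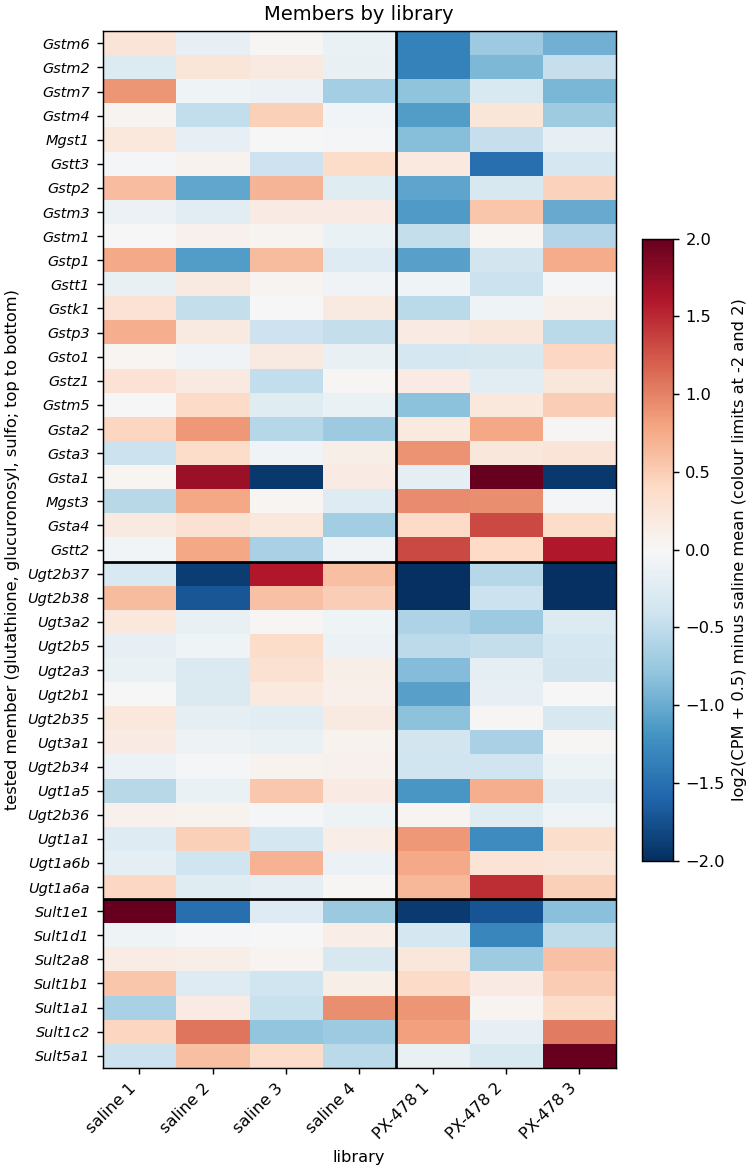
Each of the 43 tested members (rows) in each of the 7 libraries (columns), as log2(CPM + 0.5) minus the mean of the saline libraries, with colour limits at -2 and 2. Gstm6 and Gstm2 are below the saline mean in all 3 PX-478 libraries, whereas Gstm1, Gstm3 and Gstm4 are so in PX-478 replicates 1 and 3 but not in replicate 2.

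Genes that supply the cofactors were read beside the enzymes, from lists that hold no member, and none passed the adjusted threshold. At an unadjusted p under 0.05 lay 3.48% of all genes in each direction. Of 7 tested genes for PAPS supply, 1 was under it as higher and 0 as lower. That gene, Papss2, the PAPS synthase of liver, read 81.4, 82.6, 42.3 and 101.4 CPM with saline and 218, 118 and 229 CPM with PX-478, without overlap (log2 fold change 1.29, SE 0.30, adjusted p = 0.264). Bpnt1, which removes the spent cofactor, had a log2 fold change of -0.58. Of 7 genes for UDP-glucuronate supply 0 were under 0.05 in either direction. The UDP-glucose synthase gene Ugp2 stood at 158 ± 22.6 CPM and 116 ± 27.5 CPM (log2 fold change -0.45, SE 0.21), and Ugdh, which oxidises UDP-glucose to UDP-glucuronate, had a log2 fold change of -0.26. Of 14 glutathione genes, 1 was under 0.05 as higher and 1 as lower. Gss, glutathione synthetase, was the lower one at 75.2 ± 19.6 CPM and 49.4 ± 6.38 CPM (log2 fold change -0.61, SE 0.22), and Ggt6 the higher one at 0.97 (SE 0.40). The rate-limiting ligase subunits Gclc and Gclm had log2 fold changes of -0.14 and -0.20.

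Among 9 genes of transporters that export conjugates or drugs, 6 had higher values. At an unadjusted p under 0.05, where 3.48% of all genes lay in each direction, 1 was higher. It was Abcb1a, which stood at 0.909 ± 0.475 CPM and 2.47 ± 0.685 CPM. Abcc2, which carries conjugates into bile, differed by 0.25 on the log2 scale (SE 0.19) and Abcc3, which carries them into blood, by 0.33 (SE 0.28). Of 8 genes that break conjugates down or act on related esters and amides, 1 was higher and 2 were lower at that level, with the arylsulfatase gene Arsg at 16.3 ± 2.95 CPM and 7.93 ± 0.798 CPM (log2 fold change -1.04, SE 0.23, adjusted p = 0.264). Of 16 genes for methylation, acetylation and amino acid conjugation, 2 were higher and 2 lower at that level. Tpmt, thiopurine methyltransferase, read 59.3, 48.3, 51.4 and 60.0 CPM with saline and 28.8, 34.6 and 39.4 CPM with PX-478, without overlap (log2 fold change -0.68, SE 0.19, adjusted p = 0.433). Acsm3, a medium-chain acyl-CoA synthetase, stood at 4.87 ± 0.817 CPM and 10.8 ± 2.03 CPM (log2 fold change 1.14, adjusted p = 0.269).

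Known targets of the receptors that induce conjugation enzymes showed no shared direction, as far as they were found. Cyp2b10, Cyp2b13 and Cyp2b9, listed as CAR and PXR targets, were not among the deposited genes. Nor were Ahrr and Aldh3a1 for the AHR and Slc7a11 for NRF2. Of 17 NRF2 targets tested 6 had higher and 11 lower values (median log2 fold change -0.11), with Srxn1 at -0.64 and Cbr1 at 0.63. Of 16 targets of CAR and PXR 11 had higher and 5 lower values (median 0.087), with Cyp3a13 at 0.79 and Aldh1a1 at -0.63. Of 5 AHR targets 3 had higher values (median 0.27), all low in saline, with means of 0.946 CPM in Cyp1b1, 1.83 in Tiparp and 2.13 in Nqo1. Cyp1a1 had a mean of 0.782 ± 0.362 CPM in saline. Cyp1a2, the most abundant of the 5 at 509 ± 94.0 CPM in saline, had a log2 fold change of -0.27 (SE 0.30). Among 20 regulators 1 was higher at an unadjusted p under 0.05, beside 3.48% of all genes. It was the bile acid receptor gene Nr1h4, whose log2 difference came to 0.61 (SE 0.24, adjusted p = 0.647). Nfe2l2, which encodes NRF2, had 0.065 (SE 0.22) and Nr1i2, which encodes PXR, 0.48 (SE 0.26).

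Sex-biased liver genes also differed between libraries of a group, and are set beside Gstp1 and Ugt2b38, a view chosen after seeing the data. A list of 20 genes known as male-biased summed to 21959, 11662, 21533 and 18348 CPM with saline and 7536, 10389 and 17542 CPM with PX-478. Most of the sum in every library came from Mup20, Mup3 and Mup7. Their means were 5345, 5918 and 2650 CPM with saline and 2884, 4393 and 1251 CPM with PX-478. Saline replicate 2 was the lowest saline library for this sum, for Gstp1 and for Ugt2b38, and PX-478 replicate 1 the lowest PX-478 library for all of them. For Ugt2b38 PX-478 replicate 3 was also low, whereas for Gstp1 it was high. Of the 20 genes 17 had lower values in PX-478 (median log2 fold change -0.64). The 10 female-biased genes found summed to 29.7, 106, 40.9 and 71.0 CPM and 279, 181 and 132 CPM, without overlap, and 7 of 9 tested had higher values (median 0.48). Most of the PX-478 sums came from 1 gene, Cyp2a4, a female-biased cytochrome P450, at 10.8, 72.1, 23.1 and 41.3 CPM and 233, 143 and 105 CPM. The other 9 genes summed to 18.9, 33.6, 17.8 and 29.7 CPM and 45.9, 37.7 and 26.6 CPM, and there the groups overlapped. The part of these shifts in the conjugation enzymes was not tested.

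**Figure D4:**
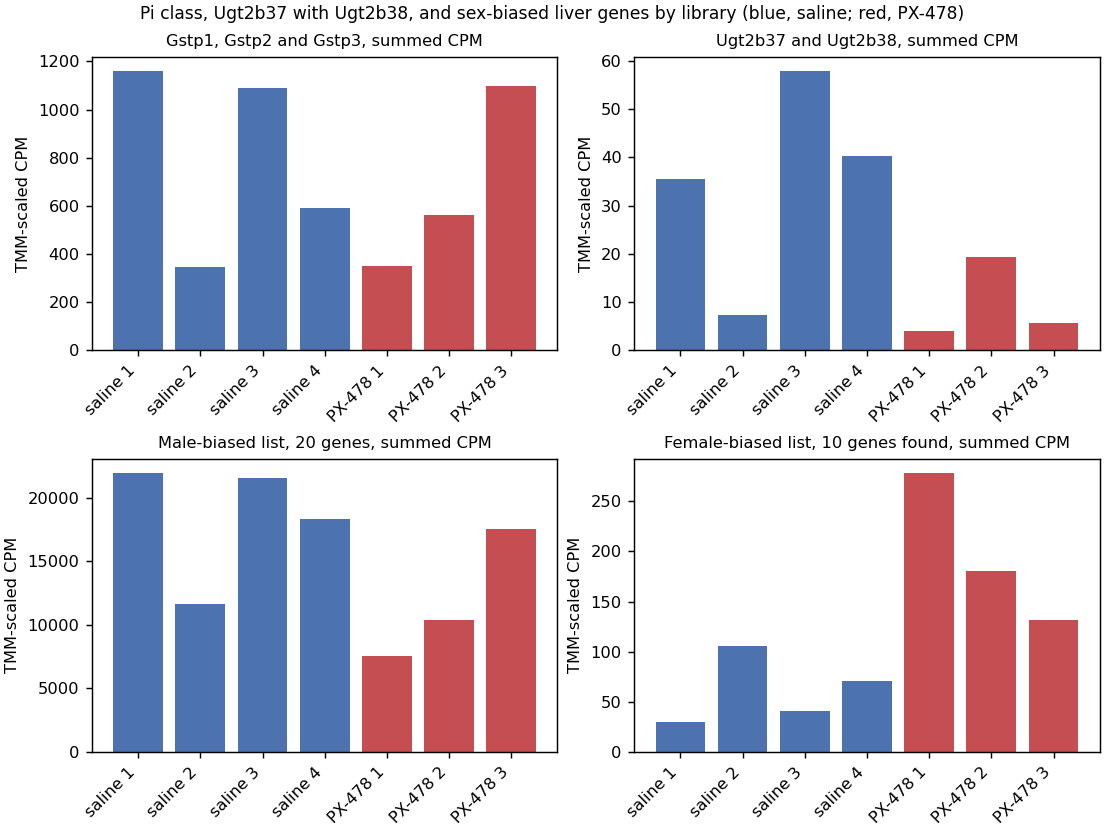
Summed TMM-scaled CPM in each library for the pi class genes, for Ugt2b37 with Ugt2b38, for the 20 male-biased and for the 10 female-biased liver genes (blue, saline; red, PX-478). Most of the male-biased sum is Mup20, Mup3 and Mup7. Saline replicate 2 is the lowest saline library in the first 3 panels and the highest in the last, and the female-biased sum, most of which is Cyp2a4 in PX-478, is higher in all PX-478 libraries than in any saline library, but not without Cyp2a4.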

How the data were processed

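Liver RNA of 4 saline and 3 PX-478 mice was sequenced, and groups and replicate numbers follow the sample titles. The authors deposited whole-number read counts per gene, not normalized. Per the submitters' processing notes, featureCounts and edgeR (no versions) and the build mm10 were used; which aligner was run is not stated there. Every deposited gene had over 0.5 CPM in at least 2 of the 14 count columns. Each sample has 2 count columns, which differed by less than the sampling noise (chi-square per gene 0.291 to 0.765, against 49.2 to 146 between libraries of a group). They were counted as 1 sample, as their rounded mean. The table's 7 average columns, 1 per sample, were left out.

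Genes were filtered with filterByExpr (13693 left), scaled by TMM and compared with edgeR 4.0.16 (quasi-likelihood F test, robust dispersion, no covariates), with Benjamini-Hochberg adjustment over all genes. Alternatives used DESeq2 1.42.0, limma 3.58.1 (voom), other scalings and filters, each column or their sum, a replicate block, no mitochondrial genes, and leaving out libraries. SE is the size of the log2 fold change divided by the root of F. On simulated counts of 13285 tested genes, 19% of 100 genes changed 2-fold and 66% of 100 changed 4-fold were recovered, with 12 unchanged genes called. With no gene changed 2 were called.

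Exon lengths and transcript windows come from GENCODE M21, and positions from RefSeq on GRCm38.p6, which shares coordinates with mm10 and matched all 47 members by Entrez ID. Members and lists were chosen with earlier results of these data known. Described with values in each library are, in each family, the 5 tested members with the smallest p and the 3 with the highest saline CPM, and those whose groups do not overlap, down to a mean log2 CPM of 1. From each other list the rule takes at most the 2 genes with the smallest p. Sums on library size alone and without Cyp2a4 were added after values were seen. Further members given by library, further list genes, the motifs and the shared promoter run were chosen after values were seen.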

Additional observations from a re-analysis of the deposited data

Results flagged for a closer look

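Among the 4 saline libraries, 1 library lay apart from the other 3 by Dixon's criterion in 3 of 21 members examined, where chance gives about 1 in 20. Ugt2b5 was 628 CPM in saline replicate 3 and 433 to 455 CPM in the others, and without that library its log2 fold change was -0.33. Ugt2b38 was 5.03 CPM in saline replicate 2 and 25.1 to 27.7 CPM in the others, and without that library its log2 fold change was -2.08. Gsta4 was 5.83 CPM in saline replicate 4 and 11.1 to 12.1 CPM in the others, and without that library its log2 fold change was 0.55.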

How the results depend on the processing

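No member passed the adjusted threshold as higher in any of the 20 alternatives, and 1 passed as lower in DESeq2 (Gstm6). At an unadjusted p under 0.05, 7 members were lower, beside 3.48% of all genes. The count was 4 with library size alone as the scaling, beside 0.949% of all genes. It ran from 5 to 11 when 1 library was left out, with 11 without PX-478 replicate 2, beside 4.25% of all genes. The count of 2 higher members, beside 3.48% of all genes, ran from 2 to 4 when 1 library was left out. It was 1 without both saline replicate 1 and PX-478 replicate 2, an alternative chosen after seeing the data. The share of all genes at that p was not taken for the remaining fits. The median log2 fold change of sulfotransferases ran from -0.18 to 0.46 when 1 library was left out, and was 0.55 without saline replicate 1 and PX-478 replicate 2. For glucuronosyltransferases the median stayed below 0 in all 20 alternatives (-0.45 to -0.18), as it did for glutathione transferases (-0.26 to -0.024). Ugt2b36 turned to 0.046 with library size alone and to 0.0013 without saline replicate 1 and PX-478 replicate 2 (-0.16 to -0.019 with 1 library left out). Gstz1 turned to -0.094 without saline replicate 3, -0.0054 without PX-478 replicate 1 and -0.04 without PX-478 replicate 3 (highest 0.17 with 1 library left out, and 0.26 without the pair). Without PX-478 replicate 3 Sult5a1 turned to -0.31 and Sult2a8 to -0.18 (highest 1.22 and 0.40 with 1 library left out; Sult2a8 0.45 without the pair). The causes were not tested. Of the tested members, 22 of 27 with lower and 9 of 16 with higher values kept their direction in all 20 alternatives. Same-numbered libraries did not deviate together (correlations of -0.021, -0.074 and -0.0017), and pairs with different numbers ran from -0.079 to 0.173. So few values show no pairing by number but cannot exclude one. With the replicate block 5 members were lower and 2 higher at an unadjusted p under 0.05, and Sult2a8 turned to -0.069. Members with under 20 reads in a library are limited by depth.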
